A study of Mus musculus with 2 samples.

Results

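The cells described here are Pi16 fibroblasts of the mouse aortic arch, 748 of 8155 cells kept after filtering. They were chosen by their counts. A cell had to contain UMIs (unique molecular identifiers, each standing for 1 counted RNA molecule) of at least 3 of the 6 fibroblast genes Dcn, Col1a1, Col1a2, Col3a1, Pdgfra and Lum. It had to lack the leukocyte gene Ptprc, to lack either Pecam1 or Cdh5 of the endothelial pair, and to hold at most 2 UMIs of Cxcl14. Among such cells, called gated fibroblasts when the Cxcl14 limit is left aside, members had at least 2 of the 5 genes Pi16, Cd248, Sema3c, Pcsk6 and Gfpt2 (the P genes), and more of these than of the 5 genes around Fmod and Wisp2 or of the 5 genes around Inmt and Gdf10.

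The study compared a normal diet (ND) with a high-fat, high-cholesterol diet (HFD) in male Apoe-/- mice on a C57BL/6 background. The mice were aged 16 weeks after 12 weeks on the diet. The HFD feed contained lard, sucrose, cholesterol and sodium cholate. Both groups lacked Apoe, the apolipoprotein through which remnant lipoproteins are cleared. Each diet was measured in 1 droplet library made from 2 pooled aortas, so animals cannot be told apart and no difference between diets could be tested. The ND library held 452 members and the HFD library 296. Cells of 1 library are not replicates. Intervals are exact at 95% and cover counting error only.

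Pi16 fibroblasts are found in the adventitia and in the loose connective tissue around vessels of many organs. Pi16 is a secreted peptidase inhibitor of unsettled function, and Dpp4, Cd34 and Ly6a are surface proteins often found on the same cells. They are widely regarded as a progenitor-like state of the fibroblast lineage, set apart from matrix-rich fibroblasts nearer to the media. The cells were dissociated before measurement, so their place in the wall was not measured.

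The members carried the genes of their label. Pi16 reached 8156 CPM (the UMIs of a gene scaled to a total of 1000000 UMIs in the group) in ND members and 5240 CPM in HFD members. In the other gated fibroblasts it reached 870.5 and 623.7 CPM, and in cells with both Pecam1 and Cdh5 it reached 40.8 and 36.1 CPM. Pi16 UMIs were present in 93.6% of ND and 92.2% of HFD members. Cd248, a surface glycoprotein of stromal cells, stood at 1149 CPM in ND and 734.5 CPM in HFD members. Sema3c, a secreted guidance protein, stood at 719.5 and 505.5 CPM. The proprotein convertase Pcsk6 stood at 627.5 and 736.5 CPM and the hexosamine enzyme Gfpt2 at 810.1 and 704.3 CPM. These 5 genes chose the cells, so their height is a description. Mfap5, a microfibril protein that the choice did not use, was detected in 92.5% of ND and 94.3% of HFD members.

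The label did not hold for every member. In 20 ND and 16 HFD members at least 2 of the 6 mesothelial markers Msln, Upk3b, Wt1, Lrrn4, Nkain4 and Krt19 were detected. Those members held all 366 ND and all 340 HFD member UMIs of Upk3b, a plaque protein of mesothelium. Their Pi16 level was 385.3 CPM in ND and 26.5 CPM in HFD, against 8781 and 5669 CPM in the remaining members. They contributed 7.45% of the ND and 7.61% of the HFD member UMIs, and some values below are also given without them.

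Sequencing depth of the members was similar, with a median of 4548 UMIs per ND member and 4927 per HFD member. The mitochondrial share was not, at a median of 12.4% in ND and 21.5% in HFD members. Over all kept cells it was 16.8% and 21.9%. The 2 libraries listed 39 barcodes in common, of which 1 was kept in both and none was a member in both. Haemoglobin RNA was unevenly spread as well: at least 2 of 4 erythroid markers were present in 4.65% of ND and 57.1% of HFD members. Markers of airway club cells summed to 2260 CPM in ND and 0.671 CPM in HFD members.

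Pi16 fibroblasts were the largest class of gated fibroblasts in both libraries. They made up 43.7% (interval 40.6 to 46.8) of 1035 ND and 66.1% (61.5 to 70.4) of 448 HFD gated fibroblasts. As a share of all kept cells they were 8.35% (7.62 to 9.11) in ND and 10.8% (9.67 to 12.03) in HFD. The Fmod/Wisp2 class, by contrast, held 184 ND and 12 HFD cells and the Inmt/Gdf10 class 155 and 46. Several genes of the gate were themselves at other levels in HFD, which bears on who is counted. Within members the log2 ratio of HFD to ND was -0.64 for Pi16, -0.65 for Cd248 and 0.23 for Pcsk6. Nbl1, which counts against membership, had a log2 ratio of -1.04 in members and -2.00 in the other gated fibroblasts. Without fibroblasts holding 2 or more markers of another type, the shares of kept cells were 6.59% in ND and 4.36% in HFD, the reverse order. These markers include haemoglobin genes, which 57.1% of HFD and 4.65% of ND members held. The mitochondrial limit also mattered: without it the HFD share was 55.0% and the ND share 41.5%. With 1 library a diet, the diet, the animals and the dissociation cannot be told apart as sources of the share.

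**Figure D1:**
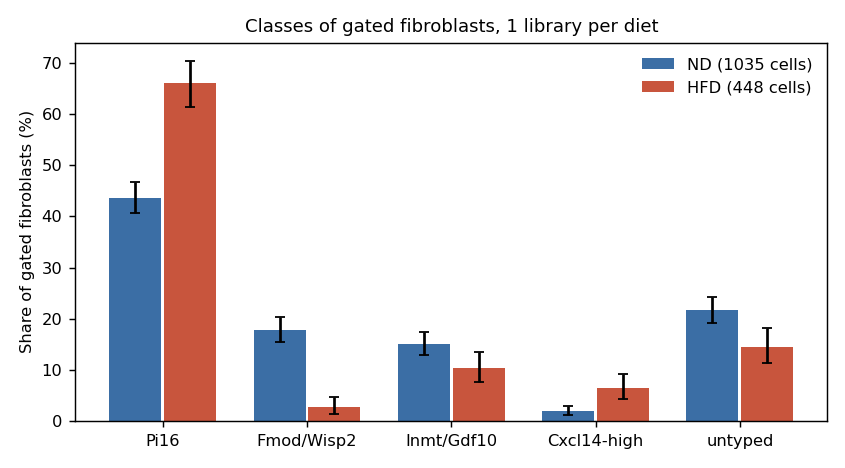
Share of gated fibroblasts in each class (vertical axis, percent) in the ND and HFD libraries, with exact 95% intervals over cells of 1 library as bars. The Pi16 class holds 43.7% of ND and 66.1% of HFD gated fibroblasts.

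Most members lay well inside the gate. All 5 P genes were detected in 241 ND and 163 HFD members, 4 in 105 and 84, 3 in 62 and 25, and 2 in 44 and 24. Just outside it, 204 ND and 46 HFD fibroblasts had at least 2 P genes but as many or more genes of another set. Just inside, ND members with 2 P genes held Dpp4 at 124.3 CPM and Mfap5 at 479.6 CPM, against 14.7 and 1008 CPM in the ND fibroblasts just outside. HFD members with 2 P genes held Dpp4 at 199.1 CPM and Mfap5 at 360.0 CPM, and the HFD fibroblasts just outside held 14.9 CPM of Dpp4 and 718.0 CPM of Mfap5. Among members with 2 P genes, 11 in ND and 11 in HFD held mesothelial markers. Without them Dpp4 had 1 UMI in 33 ND members (7.65 CPM) and 2 UMIs in 13 HFD members (32.7 CPM), so the Dpp4 level at the edge rested on them. Mfap5 then stood at 764.7 and 538.9 CPM.

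Members differed among themselves along the number of P genes. Ly6c1, a surface antigen, stood at 88.8 CPM in ND members with 2 P genes and at 1262 CPM in those with 5. In HFD members it stood at 398.2 and 1616 CPM. Efhd1, a calcium-binding mitochondrial protein, went from 17.8 to 385.7 CPM in ND and from 46.0 to 220.5 CPM in HFD. Without the members with mesothelial markers, Ly6c1 with 2 P genes was at 153.0 CPM in ND and 849.1 CPM in HFD. The opposite held for 3 matrix genes when members with 2 and with 5 P genes were set side by side. Mgp, an inhibitor of calcification, was at 4067 CPM with 2 P genes and 368.9 CPM with 5 in ND, and at 2321 and 129.4 CPM in HFD. Eln, which encodes elastin, was at 1217 and 400.3 CPM in ND and at 911.4 and 153.0 CPM in HFD. Col15a1, a basement-membrane collagen, was at 461.8 and 20.7 CPM in ND and at 107.2 and 7.88 CPM in HFD. The steps between were not even: ND members with 3 P genes had more Mgp (6378 CPM) than those with 2, and HFD members with 3 had less Eln (92.7 CPM) and more Col15a1 (267.9 CPM) than either end. Without the members with mesothelial markers, Mgp with 2 P genes was at 5782 CPM in ND and 1127 CPM in HFD, against 370.9 and 112.9 CPM with 5. Median depth was also uneven, at 3320, 3631, 3629 and 5106 UMIs with 2, 3, 4 and 5 P genes in ND, and 5534, 3344, 4446.5 and 5189 UMIs in HFD. Its part in these gradients was not tested.

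**Figure D2:**
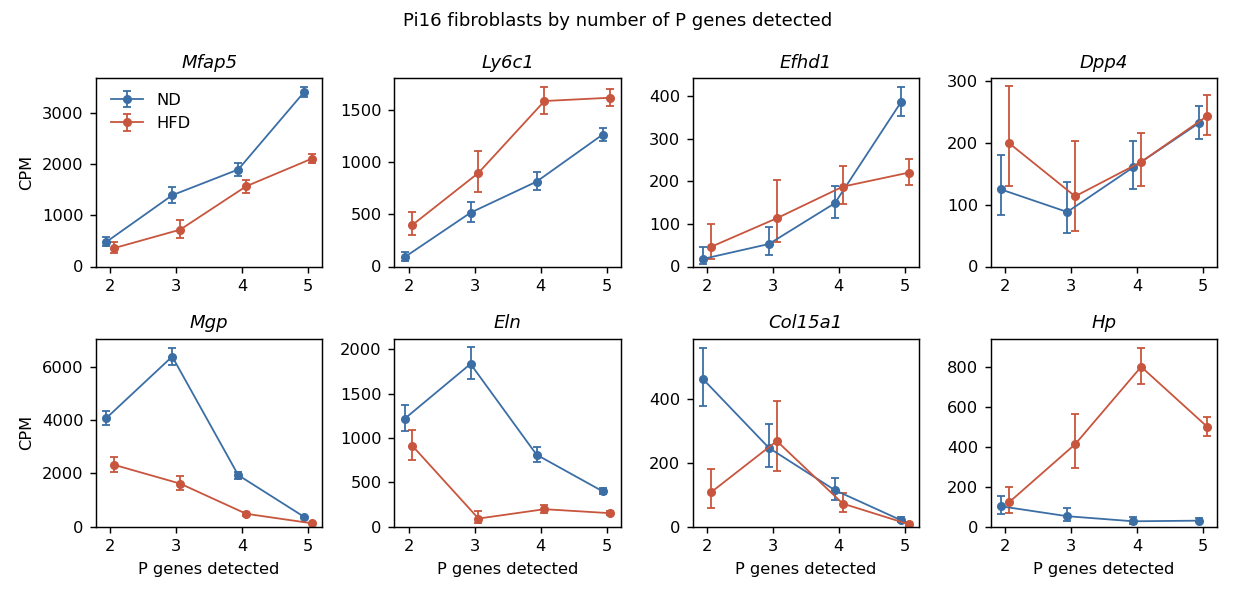
CPM of 8 genes (vertical axes, linear) in Pi16 fibroblasts against the number of P genes detected, for the ND and HFD libraries, with exact Poisson 95% intervals. Mfap5, Ly6c1 and Efhd1 are highest with 4 or 5 P genes, whereas Mgp, Eln and Col15a1 are lower with 5 than with 2 in both libraries, with uneven steps between.

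The next comparison asked what else set the members apart from the other gated fibroblasts of the same library, 583 in ND and 152 in HFD. In ND, 293 of 5689 genes with enough UMIs (at least 100 in both groups together) were over 2-fold higher in members (5.15%) and 308 over 2-fold lower (5.41%). In HFD, 202 of 2943 were higher (6.86%) and 121 lower (4.11%). Of 210 genes higher in ND and tested in both libraries, 138 (65.7%) were also over 2-fold higher in HFD, which is 4.72% of the 2924 genes tested in both. Of 110 lower in ND, 67 (60.9%) were also lower in HFD. A list of 29 genes associated with this cell type, none of them in the gate, had 28 genes over 2-fold higher in ND (median log2 ratio 2.43) and 23 of 27 in HFD (median 1.97). The median over all genes tested was 0.09 and 0.02. The list was drawn up with earlier results of these data known.

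Dpp4, a dipeptidyl peptidase of the cell surface, was among the 15 largest ND ratios. It stood at 191.7 CPM (173.8 to 210.9) in ND members against 9.01 CPM in other ND fibroblasts, and at 212.2 CPM (189.4 to 236.9) against 7.41 CPM in HFD. Its log2 ratio was 4.41 in ND and 4.84 in HFD, but 3.31 and 2.47 when at least 3 P genes were required. That setting counts members with 2 P genes among the other gated fibroblasts, so both groups change and a smaller ratio need not mean a lower level in members. Dpp4 was at 311.9 and 370.6 CPM in the members with mesothelial markers and at 182.0 and 199.1 CPM in the rest. No Dpp4 UMI was counted in the Fmod/Wisp2 or Cxcl14-high class of either library. Efhd1, also among the 15, stood at 266.4 CPM against 11.4 CPM in ND and 190.0 CPM against 11.9 CPM in HFD. Cd55, which protects cells from complement, had log2 ratios of 3.33 and 3.27, and Igfbp5, a binding protein of insulin-like growth factors, 2.92 and 3.14. With at least 3 P genes required, the log2 ratio of Igfbp5 was 2.55 in ND and 1.87 in HFD, and at a mitochondrial limit of 20% it was 3.04 and 3.79.

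Wnt ligands and a chemokine receptor were among the 15 largest ND ratios. Wnt10b, a Wnt ligand, stood at 114.8 CPM in ND members and 3.32 CPM in other ND fibroblasts, a log2 ratio of 5.11 (4.05 to 6.44). In HFD the log2 ratio was 3.20 (1.59 to 5.52). Wnt2, another Wnt ligand, had a log2 ratio of 4.55 in ND, and in HFD it had 34.2 CPM in members and no UMI in other fibroblasts. The atypical chemokine receptor Ackr1, best known from venous endothelium and erythroid cells, had log2 ratios of 4.87 and 4.26. Its level in cells with both Pecam1 and Cdh5 was 0.872 and 1.03 CPM, against 69.2 and 85.3 CPM in members.

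Enzymes of lipid mediators and of sialic acid were in the same set. Ptgs1, the constitutive cyclooxygenase, had log2 ratios of 4.22 in ND and 4.46 in HFD, and Smpd3, a neutral sphingomyelinase, 4.03 and 2.47. Pla1a, a phospholipase for phosphatidylserine, had 4.05 and 2.49, and Cmah, which hydroxylates sialic acid, 3.47 and 3.37. Some of these ratios were smaller when at least 3 P genes were required, which moves members with 2 P genes into the other group. Ptgs1 then had 3.27 in ND and 1.97 in HFD, and Cmah 2.60 and 1.505. Smpd3 had 3.66 and 1.79 at that setting, and Pla1a 3.98 and 2.43. The remaining genes of the set were Aif1l (4.75 and 2.81), Islr2 (4.07 and 4.14), Cadm3 (3.94 and 3.77), Pde8a (3.50 and 2.36) and Emilin2 (3.48 and 1.96). Has1, a hyaluronan synthase, and Ugdh, which makes a precursor of hyaluronan, had ND log2 ratios of 3.05 and 2.89. Ugdh was looked at after its value had been seen.

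One gene of the 15 did not keep its direction. Cxcl13, a chemokine for B cells, had a log2 ratio of 3.69 in ND and -1.08 in HFD. In ND the members with mesothelial markers held 73.8% of its UMIs, and without them the ND log2 ratio was 1.87. In HFD they held none, and the Inmt/Gdf10 class stood at 659.6 CPM. With at least 3 P genes required, and members with 2 counted among the other fibroblasts, the ND log2 ratio was -1.41.

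Matrix genes lay on both sides. Mgp had log2 ratios of -2.28 in ND and -2.91 in HFD, and -2.37 and -3.59 without the members with mesothelial markers. Eln had -1.89 and -2.77, and its HFD value was -0.21 without fibroblasts holding 2 or more markers of another type. Mfap4 had -2.38 and -2.97, whereas fibronectin (Fn1) had 3.13 and 0.68 and fibrillin (Fbn1) 2.34 and 2.03. At a mitochondrial limit of 20% the HFD value of Fn1 was -0.30. In HFD, fibroblasts outside the class with 1 P gene held Fn1 at 3572 CPM. HFD members held 2167 CPM with 2 P genes and 3991 CPM with 5. Of 20 elastic-fibre genes, 5 were over 2-fold higher and 5 lower in ND, and 4 higher and 5 lower in HFD. Of 24 collagens and collagen-processing genes, 5 were over 2-fold lower and 3 higher in ND, and 10 of 23 lower and 2 higher in HFD. Col14a1, a fibril-associated collagen, was one of those higher in both, with log2 ratios of 1.12 and 1.56. Of 10 contractile and myofibroblast genes, 6 were over 2-fold lower in each library and none higher.

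**Figure D3:**
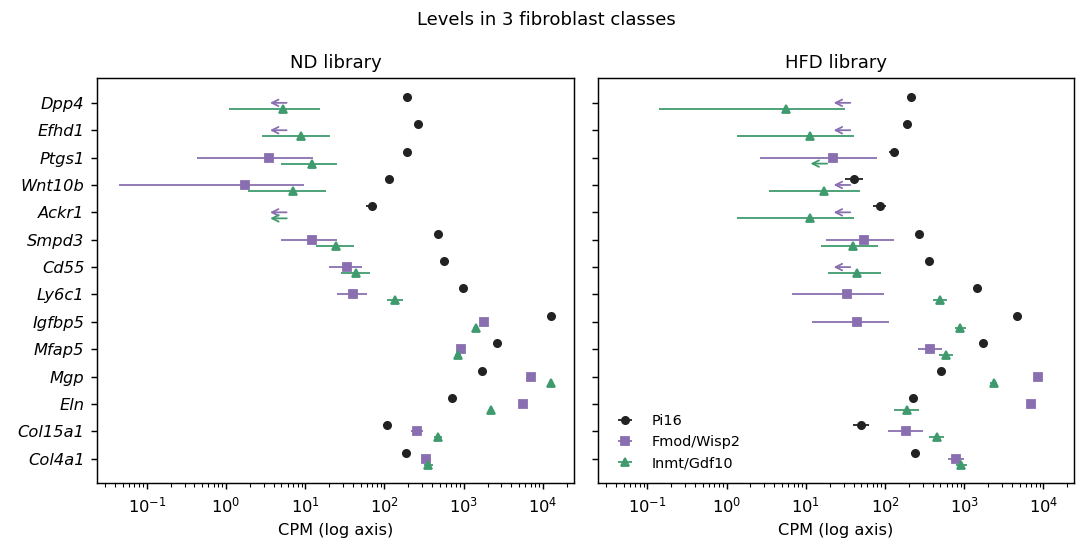
CPM of 14 genes (log axis) in the Pi16, Fmod/Wisp2 and Inmt/Gdf10 classes of the ND library (left) and HFD library (right), with exact Poisson 95% intervals. Arrows start at the upper limit where a class had no UMI. Dpp4 to Mfap5 are highest in the Pi16 class in both libraries, and Mgp, Col15a1 and Col4a1 are lowest there.

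The 10 lowest ND ratios belonged largely to products of other cells. They included Igha, Igkc and Jchain of plasma cells, Tff2, Sftpa1 and Bpifb1 of airway and mucosal epithelium, and Saa3, Sfrp5 and Sost. Igkc stood at 48.3 CPM in ND members and 2364 CPM in other ND fibroblasts. Once fibroblasts with at least 2 markers of another cell type were left out, its log2 ratio was 0.81.

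The diet comparison covered 4940 genes with 100 or more member UMIs over the 2 libraries combined, of which 4 or more lay in each. Of these, 63 were over 2-fold higher in HFD members (1.28%) and 102 over 2-fold lower (2.06%), 3.34% in all. The median log2 ratio over all genes was -0.17. Calls of 2-fold were made on the ratios as they stand, without taking this median off. Genes called only just past 2-fold lower therefore differ from the median gene by less than 2-fold. Scaled by the median of ratios, the counts were 84 higher and 56 lower, and without mitochondrial, haemoglobin and ribosomal genes in the totals 83 and 54.

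Genes of the acute phase and innate defence were higher in HFD members and were spread over many of them. Hp, haptoglobin, the plasma protein that binds free haemoglobin, had 87 UMIs in 29 of 452 ND members and 798 UMIs in 110 of 296 HFD members. Its level was 39.6 CPM (31.7 to 48.9) in ND and 535.7 CPM (499.2 to 574.2) in HFD, a log2 ratio of 3.76 (3.44 to 4.09). The richest HFD member held 6.14% of its UMIs, so the level did not come from a single cell. The members with mesothelial markers held none of the HFD UMIs. Among the rest, members with 2 P genes stood at 175.9 CPM in ND and 261.3 CPM in HFD, and those with 5 at 30.8 and 506.4 CPM. After every cell was thinned to 2000 UMIs, Hp was detected in 3.86% of ND and 29.7% of HFD members. Cells with both Pecam1 and Cdh5 gave 3.21% and 3.14%, and the similar share in ND members was not read as expression.

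Serpina3n, a serine protease inhibitor, went from 104.7 CPM in 107 ND members to 536.4 CPM in 176 HFD members, a log2 ratio of 2.36 (2.14 to 2.57). Lbp, which hands bacterial lipopolysaccharide to its receptor, stood at 120.2 CPM in ND and 540.4 CPM in HFD members, a log2 ratio of 2.17 (1.97 to 2.37). Ptx3, a soluble pattern-recognition protein, stood at 118.9 and 363.9 CPM, a log2 ratio of 1.61 (1.40 to 1.83). All 8 tested genes of this group were higher in HFD, 6 of them over 2-fold, with a median log2 ratio of 1.46. In the other gated fibroblasts the median was 1.47. The group was drawn up after its values had been seen. The metallothioneins Mt1 and Mt2, which bind zinc and copper, were its least raised members, with log2 ratios of 0.64 and 0.93. Lcn2, a siderophore-binding protein, was counted apart because ND members held 1 UMI. HFD members held 84 in 32 cells, with 29.8% of them in 1 cell.

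Cells with several of these genes, or of C4b described below, were counted. The share expected from each gene alone was not computed, so no link between the genes is read from the counts. The genes were chosen with their HFD levels known, so the higher share in HFD is a description. In cells thinned to 2000 UMIs, at least 2 of Hp, Lbp, Serpina3n, Ptx3 and C4b were detected in 17.8% (14.3 to 21.9) of 415 ND members and 63.4% (57.5 to 69.1) of 279 HFD members. At least 3 were detected in 3.61% and 41.6%. The other gated fibroblasts gave 8.78% and 42.8% for at least 2, and cells with both Pecam1 and Cdh5 gave 0.335% and 1.12%. The higher share in HFD was therefore not particular to Pi16 fibroblasts. The thinning left out 37 ND and 17 HFD members with fewer UMIs.

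**Figure D4:**
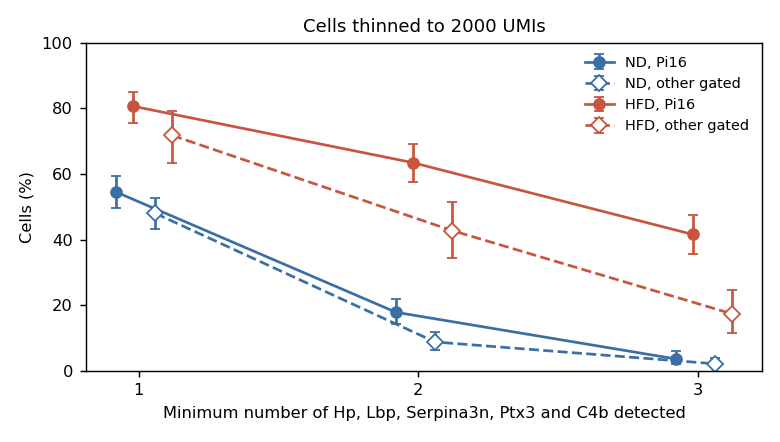
Share of cells (vertical axis, percent) with at least 1, 2 or 3 of Hp, Lbp, Serpina3n, Ptx3 and C4b detected after thinning to 2000 UMIs, for Pi16 fibroblasts (filled) and other gated fibroblasts (open) of each library, with exact 95% intervals. At least 2 are found in 17.8% of ND and 63.4% of HFD Pi16 fibroblasts.

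For acute phase and innate genes higher in HFD, the 250 bases before the RefSeq start sites (GRCm38.p6) were then searched. Both strands were read for letters bound by factors of inflammation. These were TTGCNNAA for C/EBP and, for NF-kB, GGG and TT with any 2 bases between, then any base and CC. The windows of 4 clock genes described later, Nr1d1, Nr1d2, Dbp and Arntl, were searched in the same way, and all windows also for the E-box CACGTG and the RORE TAGGTCA. Of 11 acute phase and innate genes sought, 7 had an entry: Serpina3n, Ptx3, Lcn2, Saa3, Il6, Cxcl12 and Timp1. Hp, Lbp and C4b, counted with Serpina3n and Ptx3 above, had none. The NF-kB letters were found for 2 of the 7 with an entry, Serpina3n and Il6, against 4.11% of all 32536 windows. Those of C/EBP were found for 4, Ptx3, Lcn2, Saa3 and Il6, against 9.57%. Lcn2 and Saa3 were nearly absent from ND members. The genes were chosen with their HFD levels known, and an excess over all windows was not tested. The E-box and RORE were found in none of the 7, nor in any of the 4 clock genes, against 6.04% and 2.24% of all windows. A C/EBP match lay before Nr1d1. A match is a run of letters and does not show binding, and its absence says only that these letters are not in this window. The windows of Il6, Serpina3n and Ptx3 are shown because these genes were higher in HFD and had a match, which is in capitals. They lie on the plus strand at chr5:30012864-30013113 (Il6), chr12:104406458-104406707 (Serpina3n) and chr3:66219637-66219886 (Ptx3). In Il6 the C/EBP letters start at position 123 and the NF-kB letters at 207. In Serpina3n the NF-kB letters start at 80, and in Ptx3 the C/EBP letters start at 194. The C/EBP matches in Il6 and Ptx3 lie on the minus strand, so the capitals show the reverse complement of the letters given above.
Il6: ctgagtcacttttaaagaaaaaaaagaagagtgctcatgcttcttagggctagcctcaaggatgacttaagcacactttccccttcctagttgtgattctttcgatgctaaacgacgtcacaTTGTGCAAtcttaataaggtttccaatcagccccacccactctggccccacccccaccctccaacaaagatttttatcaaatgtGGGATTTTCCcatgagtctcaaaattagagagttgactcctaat
Serpina3n: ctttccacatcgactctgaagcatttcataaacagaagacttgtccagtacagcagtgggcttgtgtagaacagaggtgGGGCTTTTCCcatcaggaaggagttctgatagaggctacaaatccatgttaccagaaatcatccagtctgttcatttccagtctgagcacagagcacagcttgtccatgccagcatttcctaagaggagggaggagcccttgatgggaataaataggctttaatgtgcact
Ptx3: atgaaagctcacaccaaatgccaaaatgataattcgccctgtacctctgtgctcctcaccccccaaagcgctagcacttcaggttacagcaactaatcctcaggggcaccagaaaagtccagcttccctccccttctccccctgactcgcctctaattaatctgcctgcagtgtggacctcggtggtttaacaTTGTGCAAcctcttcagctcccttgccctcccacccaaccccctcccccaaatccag

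Complement and chemokine genes followed the same direction. C4b, a component of the classical pathway, stood at 442.6 CPM in ND and 1223 CPM in HFD members, a log2 ratio of 1.47 (1.35 to 1.58). Cfb, of the alternative pathway, stood at 45.1 and 116.1 CPM, a log2 ratio of 1.37. These 2 of 9 tested complement genes were over 2-fold higher (against 1.28% of all genes) and none lower. Of the 9, 7 had log2 ratios above 0, against 29.5% of all genes. The median log2 ratio of the list was 0.39 in members and 0.50 in the other gated fibroblasts. C3, the most abundant, had a log2 ratio of 0.63, whereas the inhibitor Cd55 had -0.64.

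Of 14 chemokine, cytokine and receptor genes tested, 5 were over 2-fold higher (against 1.28% of all genes) and none lower. The median log2 ratio of the list was 0.79 in members and 1.39 in the other gated fibroblasts. Cxcl12, a chemokine that retains leukocytes and stem cells, stood at 174.4 CPM in ND and 484.1 CPM in HFD members, a log2 ratio of 1.47 (1.29 to 1.66). Il6, the inducer of the hepatic acute phase, had 157 UMIs in 56 ND members and 320 UMIs in 63 HFD members, a log2 ratio of 1.59 (1.31 to 1.87). Its log2 ratio was 1.98 among members with 5 P genes and 0.72 among those with fewer. The receptor Il1r1 stood at 55.6 CPM in ND and 111.4 CPM in HFD members. Cxcl2 (log2 ratio 1.72) and Ccl7 (1.15) were over 2-fold as well, but under the alternatives they went as low as 0.69 and 0.85. Ccl2, the main monocyte chemokine, stood at 115.2 and 114.1 CPM.

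Clock genes formed a second set. Nr1d1 and Nr1d2, the repressors also called Rev-erb, had 13 and 21 UMIs in ND members and 98 UMIs each in HFD members. Their log2 ratios were 3.47 (2.63 to 4.43) and 2.78 (2.09 to 3.54). Dbp, a transcription factor of clock output, had 13 and 88 UMIs, a log2 ratio of 3.32 (2.47 to 4.28). Arntl, the activator that the Rev-erb proteins repress, went the other way, from 55.6 CPM in 95 ND members to 10.7 CPM in 16 HFD members, a log2 ratio of -2.37 (-3.22 to -1.61). Of 9 clock genes tested, these 3 were over 2-fold higher (against 1.28% of all genes) and Arntl lower (against 2.06%). Per1 had -0.24 and Clock -0.55. The other gated fibroblasts showed the same signs, with 2.70 for Nr1d1 and -1.40 for Arntl. Clock transcripts follow the time of day, the hour at which each library was collected was not known here, and its part in these ratios was not tested.

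Some elastic-fibre genes were lower in HFD members. Mfap4, a microfibril-associated protein, stood at 216.8 CPM in 122 ND members and 35.6 CPM in 30 HFD members, a log2 ratio of -2.61 (-3.04 to -2.20). Eln stood at 714.5 CPM in ND and 226.9 CPM in HFD members, a log2 ratio of -1.65 (-1.83 to -1.48). Fbln1, a fibulin of elastic fibres, had a log2 ratio of -1.05. Of 20 elastic-fibre genes tested, these 3 (against 2.06% of all genes) were over 2-fold lower and none higher, with a median log2 ratio of -0.32 against -0.17 over all genes, and Lox, which crosslinks elastin, had 0.83. Of 24 collagens and processing genes, Col12a1 (-1.25) and Col15a1 (-1.12) were over 2-fold lower (against 2.06% of all genes) and none higher. The list median of -0.20 was close to that of all genes. Under the alternatives Fbln1 went to -0.87, Col12a1 to -0.81 and Col15a1 to -0.26. Mgp had a log2 ratio of -1.73 (-1.84 to -1.61), and -2.32 without the members with mesothelial markers. Mfap4, Eln and Mgp were also higher in members with fewer than 5 P genes than in those with 5. Their ratio was taken again among members with all 5. There it was -1.70 for Mfap4, -1.39 for Eln and -1.51 for Mgp.

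Of 15 growth factor and binding protein genes tested, 4 were over 2-fold lower (against 2.06% of all genes) and 2 higher (against 1.28%). Igfbp5, the most abundant of them, stood at 12611 CPM in ND and 4671 CPM in HFD members, a log2 ratio of -1.43 (-1.47 to -1.40), and -1.33 among members with 5 P genes. Igf1 had a log2 ratio of -1.62, the heparin-binding factor Ptn -1.68 and the receptor Pdgfrb -1.18. Fgf7 (1.16) and the lymphatic growth factor Vegfd (1.12) were over 2-fold higher. Of 22 TGF-beta and BMP genes tested, 5 were over 2-fold lower (against 2.06% of all genes) and none higher. They were Tgfb3 (-1.42), Tgfbi (-1.35), Ctgf (-1.30), Cyr61 (-1.11) and Bmp2 (-1.09). The median log2 ratio of the list was -0.25 in members and -0.54 in the other gated fibroblasts. Tgfbr2, the ligand-binding receptor, had 0.73. Tgfb3 and Igfbp5 stayed past 2-fold under every alternative run, whereas the ratio nearest to 0 was -0.88 for Igf1, -0.77 for Ptn, -0.98 for Tgfbi, -0.98 for Ctgf, -0.47 for Cyr61, -0.22 for Bmp2, -0.95 for Pdgfrb and 0.91 for Vegfd.

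Of 19 matrix proteases and inhibitors, 2 were over 2-fold higher (against 1.28% of all genes) and 1 lower (against 2.06%). Timp1 had a log2 ratio of 1.64 (1.34 to 1.95) and Timp3, which is anchored in the matrix, -1.37 (-1.47 to -1.26), whereas Timp2 had -0.13. Among members with all 5 P genes both came within 2-fold, Timp1 at 0.96 and Timp3 at -0.97. Mmp3, stromelysin, had 1.31, from 179 UMIs in 36 ND members and 301 in 38 HFD members. Of the 16 tested genes of a Wnt list, Dkk3 was past 2-fold, at -1.70, and at -0.99 among members with 5 P genes. Wnt10b, which that list leaves out, had -1.49 and was chosen after its value had been seen, as was Adm. Adm, the vasodilator adrenomedullin, stood at 196.3 CPM in ND and 598.2 CPM in HFD members, a log2 ratio of 1.61 (1.44 to 1.78). Runx1, a transcription factor, had 1.96 (1.46 to 2.48), from 41 ND and 76 HFD members.

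The programme that marked the class was at the background of all genes between diets. Of its 29 genes 1 was over 2-fold lower, Igfbp5, and none was higher, against 3.34% of all genes either way, with a median log2 ratio of -0.19 against -0.17. Dpp4 had 0.15 (-0.07 to 0.36), Ly6c1 0.58 and Cd55 -0.64. Interferon-response genes had a median of -0.01, with none of 16 past 2-fold, where 3.34% of all genes were. Counts of the lists that follow are read against the same share. Of 13 heat shock genes 1 was above 0, against 29.5% of all genes, and Hspa1b (-1.15) was past 2-fold, and of 23 immediate early genes Egr3 (-2.02) was. Of 16 proteoglycan and hyaluronan genes Has2 (-1.15) and Aspn (-1.12) were over 2-fold lower. Of 9 guidance genes Sema3e was over 2-fold higher, at 20.9 CPM in ND and 59.1 CPM in HFD members, and Efnb1 (-1.28) lower. Under the alternatives Hspa1b went to -0.40, Efnb1 to -0.39, Has2 to -0.97 and Aspn to -0.88. Of 14 genes of cholesterol efflux, lipid storage and adipogenesis none was past 2-fold, with a median of 0.27. Of 3 sterol synthesis and uptake genes Insig1 (-1.22) was lower.

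**Figure D5:**
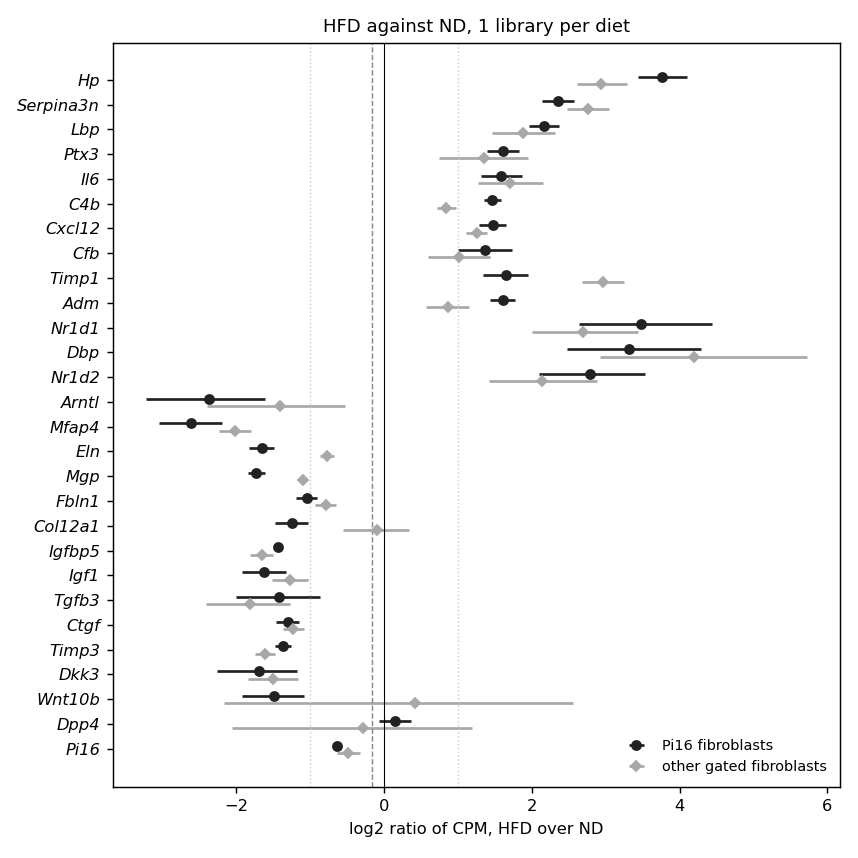
Log2 ratio of CPM, HFD over ND, for 28 genes in Pi16 fibroblasts (black circles) and other gated fibroblasts (grey diamonds), with exact 95% counting intervals. The dashed line is the median of all genes in Pi16 fibroblasts, -0.17, and dotted lines mark 2-fold. Hp, Nr1d1 and Dbp lie furthest right in Pi16 fibroblasts and Mfap4 and Arntl furthest left.

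Some of the largest diet ratios rested on few cells or on RNA of other cell types. Cma1 (5.58), a mast cell chymase, had 96.3% of its HFD UMIs in 1 member, and its log2 ratio was -0.16 without members holding mast cell markers. In that member lay 636 of 648 HFD UMIs of Cma1, Mcpt4, Cpa3 and Tpsb2. Retnla (4.47) had 95.2% of its HFD UMIs in 1 member. Of 10 contractile and myofibroblast genes, 4 were over 2-fold higher (against 1.28% of all genes), Runx1 (given above), Acta2, Tagln and Tpm2, and none lower. Acta2 (3.56) and Tagln (3.48), of smooth muscle, were found in 8 and 11 HFD members, and 51.8% of the Acta2 UMIs came from 1. Without the member richest in each gene, the log2 ratio was 2.89 for Acta2 and 3.07 for Tagln. Without fibroblasts holding 2 or more markers of another type it was -1.36 for Tagln, which is itself one of the markers counted there. The haemoglobin genes Hbb-bt (3.35) and Hba-a2 (2.50) are 2 of the 4 erythroid markers given above. Among genes lower in HFD, Car3 (-2.97), Stmn1 (-2.02) and Enpp2 (-1.71) likewise had 52.3%, 31.3% and 44.0% of their ND UMIs in 1 member, and Igkc (-2.00) 41.5%. Enpp2 had 79.8% of its ND UMIs in the members with mesothelial markers, and a log2 ratio of -0.40 without them. Spon2 (-2.27) and Angptl7 (-2.02) were spread over 74 and 80 ND members.

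Genes absent or nearly absent from 1 library were set apart. Scgb1a1, Bpifa1, Scgb3a1 and Scgb3a2 of airway epithelium, with Ltf, had 143 to 2781 UMIs in ND members and at most 1 in HFD members. They are the 5 with the most UMIs of 21 such genes. In the HFD direction there were 6, of which the 5 with the most UMIs were Mcpt4, Cpa3, Tpsb2, Lcn2 and Saa3, and Saa3 was found in 4 HFD members. Macrophage markers summed to 89.3 CPM in ND and 266.5 CPM in HFD members, with 3.32% and 4.73% of members holding at least 2 of 8. Endothelial markers summed to 121.6 and 150.4 CPM and smooth muscle markers to 70.1 and 404.8 CPM. T cell markers were nearly absent, with 4 UMIs in ND and 1 in HFD members. Their part in the diet ratios was not tested, beyond the values given without the cells concerned.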

How the data were processed

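The authors deposited UMI counts per gene and barcode for each library and for both joined. Per the submitters' processing notes they used bcl2fastq, Cell Ranger (3.0.1 in the file headers), UMI-tools, R 4.0.0, Seurat 3.2.0 and mm10. The counts are raw, over 31053 genes, and the joined table was not used. Filters of 200 genes, 200 UMIs and 30% mitochondrial UMIs left 5416 ND and 2739 HFD cells. The members and gene lists were chosen with earlier results of these data known.

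UMIs of members were summed per library (2195999 in ND, 1489513 in HFD) and divided by their total as CPM. Intervals are exact: Clopper-Pearson for shares, Poisson for CPM, and for ratios a binomial conditioned on the summed UMIs. The study's tests over cells were not used, because cells of 1 library are not replicates. A gene was called past 2-fold, with 3 UMIs in place of 0 in the class comparison. Genes named were the 10 largest diet ratios each way, the 15 highest and 10 lowest ND class ratios, genes with 3 or fewer UMIs in 1 library, and list members with most UMIs or past 2-fold. Some genes that this rule names are not reported here. No doublet caller was run. Instead, the 6% of cells with the most UMIs, or fibroblasts with 2 or more markers of another type, were left out as alternatives. The promoter search covered 4 motifs and is reported whole. Only the diet ratio and its interval were tested on simulated data, drawn from the Poisson model that the interval assumes. Gating, thinning, the class comparison and the spread between cells were not simulated. Python 3.11.15, numpy 2.4.6, scipy 1.17.1, pandas 2.3.3 and matplotlib 3.10.9 were used.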

Additional observations from a re-analysis of the deposited data

Results flagged for a closer look

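Barcodes above the mitochondrial limit were outside every comparison. Among those that met the rest of the fibroblast gate, Pi16 fibroblasts were 43.5% (38.8 to 48.4) of 434 in HFD and 32.5% (26.7 to 38.7) of 249 in ND, so 189 HFD and 81 ND barcodes of the class lie there.

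In 3 genes the diet ratio was past 2-fold in opposite directions in members and in the other gated fibroblasts, and with 1 library per diet the difference was not tested. Vegfd had a log2 ratio of 1.12 (0.87 to 1.36) in members and -1.26 (-1.68 to -0.86) in the others. The unnamed transcript 1810010H24Rik had 1.40 (0.87 to 1.94) and -2.33 (-3.81 to -1.15). Stmn1, a microtubule regulator high in cycling cells, had -2.02 and 2.09, with 31.3% of its ND member UMIs in 1 cell.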

How the results depend on the processing

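No paired analysis was possible because each diet has 1 library. Mitochondrial, haemoglobin and stray epithelial RNA differed between libraries, and counts of genes depend on the minimum of UMIs.

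The share of gated fibroblasts was 78.4% in HFD at a mitochondrial limit of 20%, where the ND share of kept cells was 11.2%. It was 55.0% in HFD with no limit, chosen after seeing the data. With at least 3 P genes the shares were 39.4% in ND and 60.7% in HFD, and the ND share of kept cells 7.53%. Without fibroblasts with 2 or more markers of another type the ND share was 47.9%, the shares of kept cells 6.59% in ND and 4.36% in HFD, and the HFD class count 86 genes. Thinning to 2000 UMIs gave 41 genes higher and 43 lower in HFD, and 164 (ND) and 93 (HFD) in the class comparison. A minimum of 20 UMIs gave 190, 505, 660 and 677, and no minimum 760, 1240, 1102 and 1157. Genes lower in HFD numbered 56 by median of ratios and 54 without mitochondrial, haemoglobin and ribosomal genes.

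Values under the alternatives were set against the interval of the main value. For single genes it covers counting error, and for lists it is a range of the ranked ratios of their genes. Of 1720 values of single genes and lists, 1371 stayed within that interval, 329 moved outside it, and 20 that were past 2-fold changed sign. For the diet these were Enpp2 with at least 3 P genes (0.71), thinned (0.55) and without the 6% of cells with the most UMIs (0.25), where Stmn1 had 0.40. They were also Car3 (2.59), Tagln (-1.36), Tpm2 (-1.30) and Hbb-bt (-1.06) without fibroblasts with other markers, and Cma1 (-0.16) without mast cell markers. In the class comparison they were Cxcl13 with at least 3 P genes (-1.41) and thinned (-1.12) in ND and at the 20% limit in HFD (1.94), and Saa3 thinned (4.57). Without fibroblasts with other markers they were Igkc (0.81 in ND, 0.67 in HFD), Igha (0.28), Jchain (1.69) and Bpifb1 (1.16), and without the cells with the most UMIs Jchain (1.32) and Bpifb1 (0.23). The cause was not tested.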

Other observations

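Cycling markers were carried by few members. At least 2 of 7 were detected in 4 ND members and 1 HFD member, and their summed level was 139.8 CPM in ND and 19.5 CPM in HFD members. In the other gated fibroblasts it was 17.1 and 171.9 CPM.

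In a list of 10 retinoid, prostanoid and hyaluronan precursor genes, chosen after their values were seen, 5 were over 2-fold higher in members than in other gated fibroblasts of ND and 1 lower, and 4 of 8 higher in HFD. Aldh1a3 was higher in members than in other gated fibroblasts, with log2 ratios of 2.84 in ND and 3.56 in HFD.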
